A study of Mus musculus with 2 samples.

Results

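Natural killer (NK) cells were read from lung single-cell RNA sequencing of *Pclaf* WT and *Pclaf* KO mice 1 week after bleomycin. The cells were chosen by measured expression: a barcode was counted as an NK cell when at least 2 of 6 gate genes (*Ncr1*, *Klrb1c*, *Gzma*, *Nkg7*, *Prf1* and *Eomes*) had a unique molecular identifier (UMI, 1 captured transcript) and 8 exclusion genes had none. The exclusion genes were *Cd3e*, *Cd3d* and *Cd3g* of T cells, *Cd79a* of B cells, *C1qa* of macrophages, *Ly6c2* of monocytes, *Cdh5* of endothelium and *Epcam* of epithelium. By this rule 367 of 45824 kept cells were NK cells, 357 in the WT library and 10 in the KO library.

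Both groups were mice of 8 to 10 weeks given bleomycin, an agent that injures the alveolar lining, at 1.35 U/kg in the series record, and their lungs were taken after 1 week. Other doses are stated elsewhere for the study, so the dose of these mice is uncertain. The WT group carried intact *Pclaf*, and the KO group came from a previously established *Pclaf* knockout line. *Pclaf* encodes a PCNA-binding protein of dividing cells. Each group was 1 library, and how many mice went into it was not given in the sources used here. With 1 library per genotype no test between genotypes was possible, and the intervals below are 95% intervals for counting error only. Reads from the same cell share its capture, so these intervals do not cover the spread between mice or between captures.

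The labels describe a sort for Cd31-/Cd45-/Epcam+ epithelial cells, a gate that would remove NK cells, which carry CD45. *Ptprc*, the gene of CD45, was nevertheless detected in 11954 of 30187 kept WT cells and in 516 of 15637 kept KO cells. Among the NK cells it was detected in 347 of 357 in WT and in 10 of 10 in KO. The labels state 16000 cells loaded per group, whereas the files held 30669 barcodes for WT and 17172 for KO. Of all barcodes, 163 occurred in both libraries, among them 3 WT and 0 KO NK cells. Libraries held 98171818 UMIs in WT and 111267567 in KO, with a median of 2127 UMIs per kept WT cell and 5957 per kept KO cell.

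*Pclaf* itself was measured first as a check of the genotype labels. Over the kept cells, WT held 3763 *Pclaf* UMIs in 1261 cells, 39.3 CPM (the UMIs of a gene per 1000000 UMIs of the same cells), and KO held 529 UMIs in 254 cells, 5.19 CPM. The library labelled KO therefore had less *Pclaf* but was not free of it. In NK cells *Pclaf* was near the limit of detection, with 3 UMIs in 3 of 357 WT cells and 2 UMIs in 1 of 10 KO cells, the latter a barcode of 4254 UMIs. The mice are described as male in the study's methods, but both libraries held transcripts of both sexes. *Xist*, expressed from the inactive X chromosome, was at 254 CPM in kept WT cells and 498 CPM in kept KO cells, and Y-linked *Ddx3y* was at 74.0 and 24.0 CPM. Among WT NK cells, 108 had a Y-linked UMI and no *Xist*, 63 had *Xist* and no Y-linked UMI, 5 had both and 181 had neither. Among KO NK cells these numbers were 2, 4, 0 and 4.

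NK cells are innate lymphocytes that kill stressed, infected or transformed cells without a rearranged antigen receptor. They weigh signals from activating receptors, which act through adaptor proteins such as DAP12 and the Fc receptor gamma chain, against signals from inhibitory receptors that bind MHC class I, and in the mouse most members of the Ly49 family, encoded by *Klra* genes, fill the second role. On activation they release granzymes and perforin from granules, and chemokines and interferon gamma, and the lung holds a large pool of them in its vessels.

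The promoters of 3 gate genes are shown because the rule asks for any 2 of the 6 genes in a cell, and they let the stretch upstream of each be compared. The 250 bases before the start of *Ncr1* (chr7:4337465-4337714, plus strand), *Gzma* (chr13:113100982-113101231, minus strand) and *Nkg7* (chr7:43436888-43437137, plus strand) are printed 5′ to 3′ from RefSeq on GRCm38.p6. Capitals mark TGTGGT, the core letters bound by RUNX factors, on either strand (ACCACA on the minus strand).
Ncr1: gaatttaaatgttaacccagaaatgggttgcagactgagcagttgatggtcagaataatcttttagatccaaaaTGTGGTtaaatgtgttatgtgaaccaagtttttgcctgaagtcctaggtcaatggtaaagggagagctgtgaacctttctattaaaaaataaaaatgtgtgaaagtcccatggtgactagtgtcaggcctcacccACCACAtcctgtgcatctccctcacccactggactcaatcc
Gzma: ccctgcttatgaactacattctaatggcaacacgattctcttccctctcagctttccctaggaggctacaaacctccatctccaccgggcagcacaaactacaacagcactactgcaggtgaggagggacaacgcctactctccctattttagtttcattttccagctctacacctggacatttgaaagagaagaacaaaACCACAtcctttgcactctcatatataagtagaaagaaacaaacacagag
Nkg7: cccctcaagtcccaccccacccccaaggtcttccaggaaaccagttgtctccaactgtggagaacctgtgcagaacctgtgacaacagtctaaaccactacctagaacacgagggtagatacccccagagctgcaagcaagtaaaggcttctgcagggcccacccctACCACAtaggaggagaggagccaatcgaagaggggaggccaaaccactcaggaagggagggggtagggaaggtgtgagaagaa
TGTGGT was found in 5 of the 6 gate genes (*Gzma*, *Klrb1c*, *Ncr1*, *Nkg7* and *Prf1*) and in 14% of all 32851 promoters of the same length. In *Ncr1*, the gene of the activating receptor NKp46, it lay 176 to 171 and 41 to 36 bases before the start. In *Gzma*, the gene of granzyme A, it lay 50 to 45 bases before it, and in *Nkg7*, the gene of a granule membrane protein, 83 to 78 bases. The T-box letters TCACACC were in 1 of the 6 genes (*Nkg7*) and in 3.33% of all promoters. Of 2 overlapping ETS motifs searched on both strands, ACAGGAA was in 0 of the 6 genes and 7.2% of promoters, and CAGGAAG was in 2 (*Nkg7* and *Prf1*) and 10.8% of promoters. A match is a description of letters, and nothing here measured binding.

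The gate genes chose the cells, so their values are a description only. In WT NK cells *Gzma* was the most abundant of them at 6154 CPM and had a UMI in 350 of 357 cells. *Nkg7* was at 1734 CPM, *Prf1*, the gene of perforin, at 652 CPM, and *Ncr1* at 497 CPM. *Klrb1c*, which encodes the NK1.1 antigen, was at 454 CPM, and *Eomes*, a T-box factor of conventional NK cells, was the least abundant at 245 CPM. WT cells held 2 gate genes in 20 cases, 3 in 69, 4 in 134, 5 in 100 and all 6 in 34. Of the 10 KO cells, 1 held 3, 2 held 4, 6 held 5 and 1 held 6. The deepest WT NK cell had 11717 UMIs and the shallowest 540, with a median of 1872, and a median of 1080 genes and 3.71% mitochondrial UMIs.

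Cells with 1 gate gene were unlike the members on genes the rule did not use. The 105 WT cells with 1 gate gene, no exclusion gene and a median of 1674 UMIs had *Klre1* in 3.81% and *Klrd1* in 11.4%, against 77.6% and 75.6% of members. Both encode lectin-like receptor subunits of NK cells. *Ptprc* was found in 47.6% of the cells with 1 gate gene and in 97.2% of members. The 20 members with the minimum of 2 gate genes, at a median of 1501 UMIs, had *Klre1* in 60% and *Ccl5*, a chemokine gene, in 90%. In KO, 16 cells had 1 gate gene, with *Klre1* in 6.25% and *Ptprc* in 18.8%.

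The exclusion genes removed more candidates than they left. In WT, 1032 cells had at least 2 gate genes, 271 of which carried a *Cd3* gene, and of the 761 others 357 were members. *Ly6c2* alone kept out 181 WT cells, 69 of them on 1 UMI, and 148 of the 181 had at least 4 gate genes. *Cdh5* alone kept out 71, *C1qa* alone 31, *Cd79a* alone 12 and *Epcam* alone 8, and 101 carried several. In KO, 23 cells had at least 2 gate genes, 6 carried *Cd3*, 5 were kept out by *Ly6c2* alone and 2 by several.

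The 181 cells kept out by *Ly6c2* alone carried NK genes about as often as the members. *Klre1* was detected in 76.8% of them and 77.6% of members, *Klrd1* in 75.1% and 75.6%, and *Ccl5* in 100% and 98.0%, at medians of 1846 and 1872 UMIs. *Gzmb*, the gene of granzyme B, was detected more often in the cells kept out (56.9% against 40.3%). *Cx3cr1*, a chemokine receptor of circulating cells (18.2% against 8.40%), and *Klrg1*, a receptor of mature NK cells (23.2% against 16.0%), were also detected more often. So was the Ly49 gene *Klra9* (61.9% against 43.4%). The Ly49 genes *Klra4* (45.3% against 50.1%), *Klra7* (27.1% against 34.5%) and *Klra8* (51.9% against 54.9%) were detected less often. *Sftpc* of alveolar type 2 cells was at 3417 CPM in the cells kept out and 362 CPM in members, in 30.9% and 27.2% of cells. *Cd27* (3.87% against 7.56%), which is lost as mouse NK cells mature, was detected less often. The gate genes chose both groups of cells, so their shares are a description only. *Eomes* (29.8% against 37.5%) and *Gzma* (97.2% against 98.0%) were lower in the cells kept out. *Ncr1* (71.3% against 64.1%), *Klrb1c* (63.0% against 57.7%), *Nkg7* (95.6% against 91.9%) and *Prf1* (79.0% against 67.2%) were higher. Ly6C is also known on lymphocytes, mature NK cells among them. None of these differences had a replicate check.

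To ask whether the label held on genes outside the gate, detection was compared with other lung cells at 1 depth, after each cell had been thinned to 500 UMIs. CD8 T cells (a *Cd3* and a *Cd8* gene, no *Cd4*, n = 494), B cells (n = 1740) and endothelial cells (2000 drawn from 6388) of the WT library served as comparison. *Klre1* was detected in 36.7% of NK cells, 1.82% of CD8 T cells, 0.172% of B cells and 0.05% of endothelial cells. *Klrd1*, which pairs with NKG2 receptors, was in 32.8% of NK cells and 10.9% of CD8 T cells. *Klrk1*, the gene of NKG2D, was in 28.0% and 4.05%. All of these receptor genes were most frequent in the NK cells. *Tyrobp*, the gene of DAP12, was in 59.4% of NK cells, 6.28% of CD8 T cells and 9.02% of B cells. *Fcer1g*, the Fc receptor gamma chain gene, was in 55.7%, 5.06% and 5.52%.

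Single T cell, B cell and endothelial markers were low in the same cells. *Trac*, the T cell receptor alpha constant gene, was in 0.560% of NK cells and 11.3% of CD8 T cells, *Ms4a1* of B cells was in 0.280% of NK cells and 36.0% of B cells, and *Cldn5* of endothelium was in 1.40% of NK cells and 52.4% of endothelial cells. *Lyz2*, a macrophage and alveolar type 2 gene, was in 21.8% of NK cells, 19.8% of CD8 T cells, 23.4% of B cells and 23.0% of endothelial cells. *Sftpc*, an alveolar type 2 gene, was in 6.16%, 6.68%, 10.1% and 10.8%. The share of NK cells with either gene lay within or below the range of the other cell types, so neither was read as expression by NK cells, and its source was not tested. *Cd200r3*, *Fcer1a*, *Ms4a2* and *Mcpt8* of basophils and mast cells, *Siglech* of plasmacytoid dendritic cells and *Il5*, *Il13* and *Il23r* of ILC2 and ILC3 had 0 UMIs in WT NK cells.

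**Figure D1:**
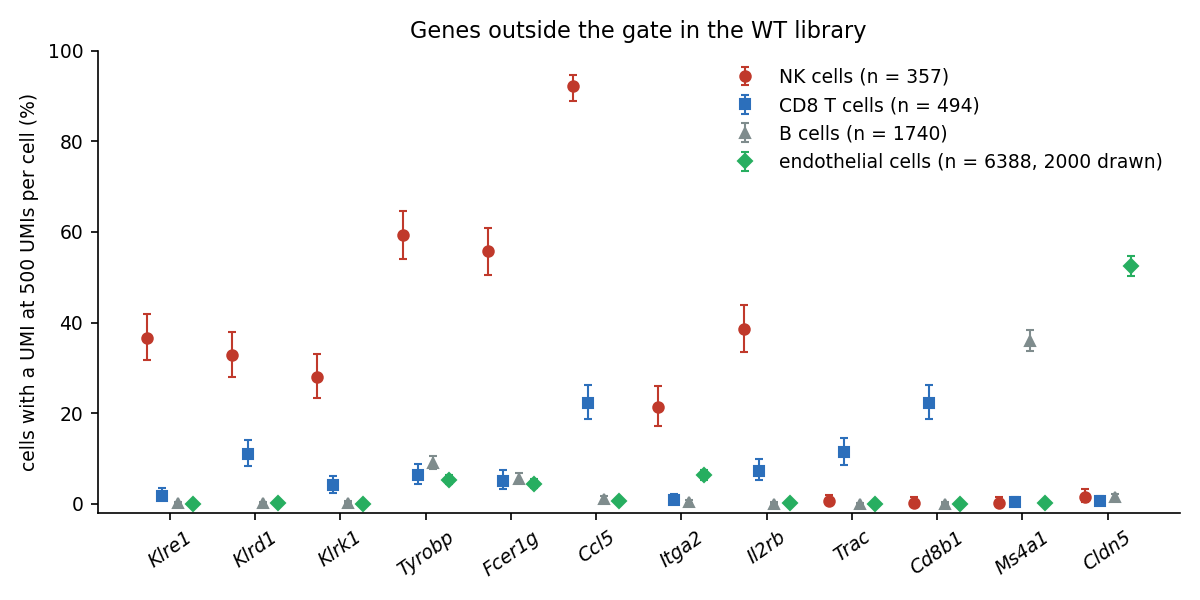
Percent of WT cells with a UMI of each gene after thinning to 500 UMIs per cell, for NK cells, CD8 T cells, B cells and endothelial cells, with exact 95% binomial intervals. *Ccl5* was detected in 92.2% of NK cells and 22.3% of CD8 T cells, and the lineage genes *Trac*, *Cd8b1*, *Ms4a1* and *Cldn5* were each below 2% in NK cells.

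The gate has exact zeros for 8 genes, but other T cell genes were not asked for. Summed over 12 T cell markers, NK cells of the WT library held 611 CPM, led by *Trbc1* at 215 CPM, and CD8 T cells held 2469 CPM, led by *Trbc2*. *Trac* was at 10.0 CPM against 209 CPM and *Cd4* at 0. *Trdc*, the constant gene of the delta chain, was higher in NK cells (46.4 CPM in 31 of 357 cells, against 12.8 CPM). Of the 357 WT NK cells, 247 had at least 1 T cell marker, 88 (24.6%) had at least 2 and 22 had at least 3. At least 1 macrophage or monocyte marker was found in 258 of the 357 cells, and at least 1 epithelial marker was also found in a majority. At least 3 neutrophil markers were found in 7 cells, at least 3 mesenchymal markers in 16, at least 3 endothelial markers in 14, at least 2 macrophage markers in 123 (34.5%) and at least 2 epithelial markers in 60 (16.8%). The summed macrophage markers were at 2791 CPM, led by *Lyz2* at 1560 CPM, with *Fcgr1* at 0, and at 2152 CPM in CD8 T cells. The summed neutrophil markers were at 608 CPM against 148 CPM, led by *S100a9*, and the mesenchymal ones at 906 CPM against 352 CPM, led by *Col3a1*. Leaving out barcodes with any UMI of *Lyz2*, *S100a8*, *Cd79b*, *Pecam1*, *Sftpc* or *Col1a1* left 112 of the 357 WT cells and 0 of the 10 KO cells, and some values for these 112 stand below.

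NK cells made up 1.18% of kept WT cells (95% interval 1.06 to 1.31, 357 of 30187) and 0.0640% of kept KO cells (0.0307 to 0.118, 10 of 15637). The sort and the epithelial content of the libraries can set these shares, since 714 WT and 7084 KO cells passed an epithelial gate. Within cells with a *Ptprc* UMI the shares were 2.90% (2.61 to 3.22) in WT and 1.94% (0.933 to 3.54) in KO, with overlapping intervals. Within NK, CD8 T, CD4 T and B cells together they were 12.4% (11.3 to 13.7) and 8.70% (4.25 to 15.4). Among NK and CD8 T cells together they were 42.0% (38.6 to 45.3) and 26.3% (13.4 to 43.1). All 3 shares among leukocytes were lower in KO, with intervals that cover counting error only. With 1 library per genotype, a difference in NK numbers between genotypes could not be tested at any depth.

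**Figure D2:**
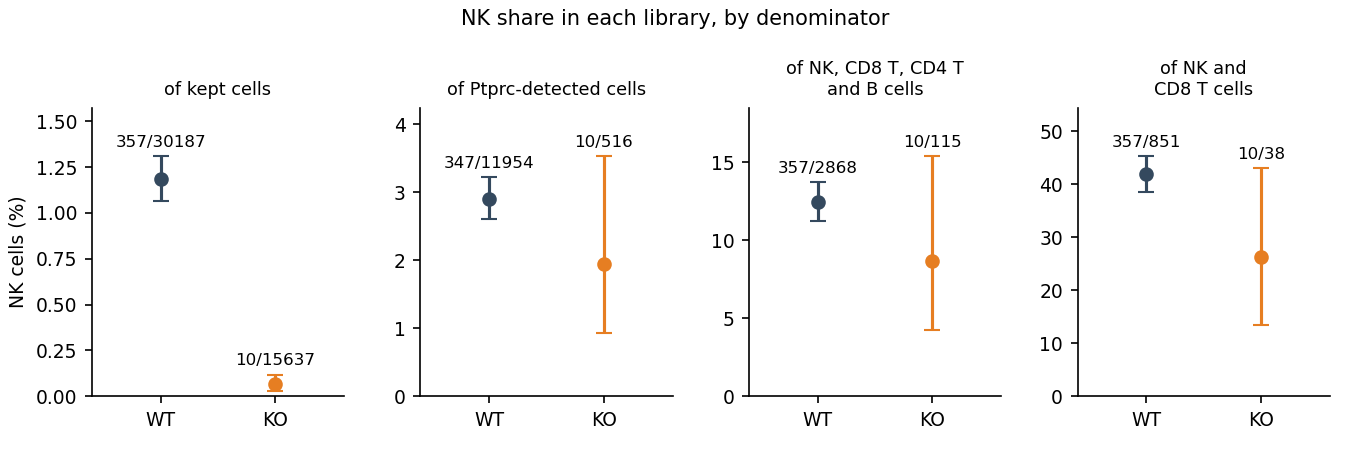
NK cells as a percent of 4 denominators in the WT and KO libraries, with exact 95% binomial intervals and the counts above each point. The interval of WT lies above that of KO for kept cells, and the intervals overlap for the other 3 denominators.

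Next, the NK cells were compared with CD8 T cells of the same library, taken as the lymphocyte closest to them in function. Only 94 of the 494 CD8 T cells (19.0%) had at least 2 gate genes, and *Lef1*, at 1101 CPM, led their listed transcription factors. The ratios below are therefore to CD8 T cells as gated, not to a cytotoxic part of them. The comparison summed UMIs over 357 NK and 494 CD8 T cells to CPM. Of 9297 genes with at least 20 UMIs over both sums, gate and exclusion genes and *Cd8a*, *Cd8b1* and *Cd4* left out, 895 (9.63%) were at least 2-fold higher in NK cells and 722 (7.77%) at least 2-fold lower, so 17.4% lay 2-fold apart. The median log2 ratio of all genes was 0.13. TMM and DESeq2 size factors moved every ratio by -0.13, after which 688 genes were higher and 894 lower, and CPM without mitochondrial and ribosomal protein genes gave 631 and 931. For the 112 NK cells without mixed content, 894 of 8420 genes (10.6%) were at least 2-fold higher and 1497 (17.8%) lower, 28.4% in all, so the lower genes outnumbered the higher ones. Of those 8420 genes, 389 had 0 UMIs in the 112 cells, where the floor stood at 14.4 CPM. The filter on mixed content was applied to the NK cells only, and all 494 CD8 T cells were kept. Ratios for the 112 cells, here and below, therefore set filtered against unfiltered cells. No test was possible between sums of 1 library, and in the 357 against the 494 cells the depth also differed (medians of 1872 and 2833 UMIs).

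Receptor genes were among those farthest above CD8 T cells. In a list of inhibitory receptor and Ly49 genes, 10 of the 12 with enough UMIs were at least 2-fold higher and 2 lower, with a median log2 ratio of 5.12. This list also holds *Klra4* and *Klra8*, whose products Ly49D and Ly49H are known as activating receptors. Without these 2 genes, 8 of 10 were higher and 2 lower, with a median of 3.37. Among activating receptor and adaptor genes, 10 of 15 were higher and 2 lower, with a median of 2.97. These medians lay above the 0.13 of all genes. Without the barcodes of mixed content they were 6.04 for the whole first list, 2.62 for it without *Klra4* and *Klra8*, and 2.97 for the activating list.

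On the Ly49 side, *Klra8* was at 952 CPM (95% interval 885 to 1022) in NK cells and 4.07 CPM in CD8 T cells, a log2 ratio of 7.87 (6.82 to 9.19). *Klra4* was at 1039 CPM and 8.72 CPM, a log2 ratio of 6.90 (6.17 to 7.74). *Klra7* was at 416 CPM with a ratio of 6.31, *Klra3* at 187 CPM with 6.01, *Klra9* at 446 CPM with 5.77 and *Klra1* at 76.6 CPM with 4.46. All 6 Ly49 genes measured were thus far higher in NK cells. *Klri2*, which encodes the partner chain of KLRE1, had the highest ratio of all genes with at least 50 UMIs, 7.95 (6.08 to 11.0), from 229 UMIs in NK cells and 2 in CD8 T cells. *Klre1* was at 747 CPM against 36.0 CPM, a log2 ratio of 4.37. *Klrc2*, an activating NKG2 gene, had a ratio of 4.85. *Klrd1* (1.93) and *Klrc1* (2.29), the subunits of the CD94/NKG2A receptor, were closer, with 197 and 48.3 CPM in CD8 T cells. In the inhibitory and activating receptor lists, the genes at least 2-fold lower in NK cells were *Cd226* (-1.38), *Slamf6* (-4.64), *Cd96* (-1.03) and *Havcr2* (-1.61).

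**Figure D3:**
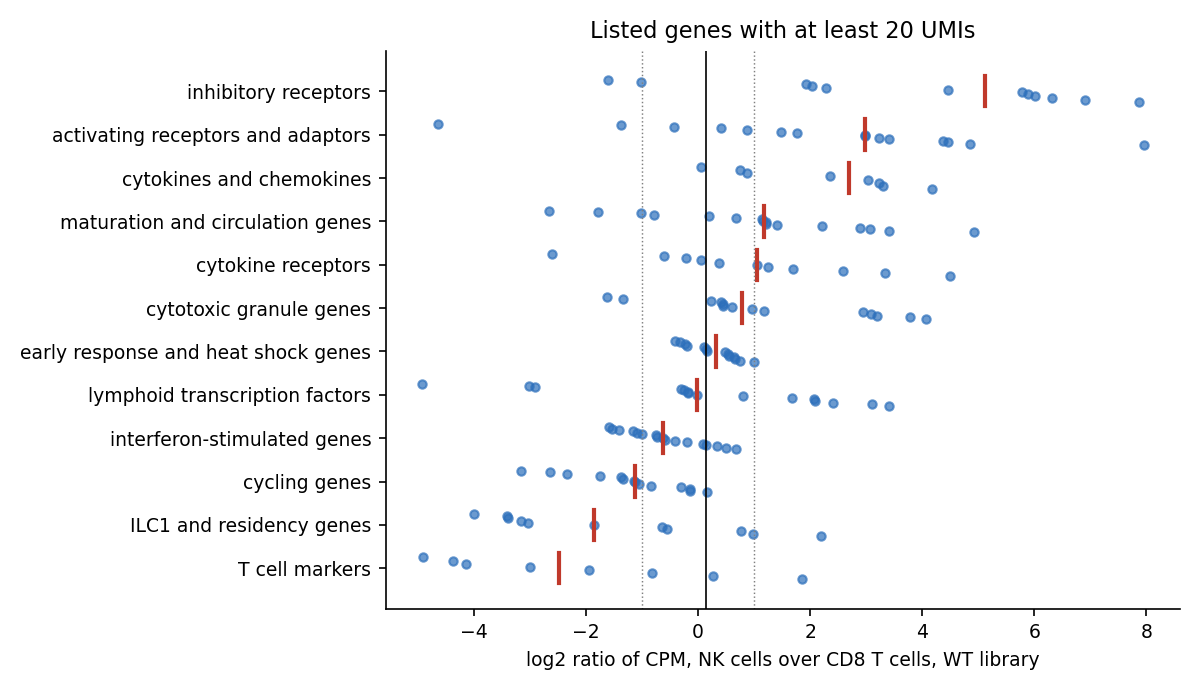
log2 ratio of CPM, WT NK cells over WT CD8 T cells, for each listed gene with at least 20 UMIs (points), with the median of each list (red bar), the median of all 9297 genes (black line, 0.13) and 2-fold (dotted lines). The list labelled inhibitory receptors has a median of 5.12 with the activating *Klra4* and *Klra8* included and 3.37 without them, activating receptor genes have a median of 2.97, and T cell markers have a median of -2.48.

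The genes that led the contrast beyond the receptors are named by the fixed rule of the 15 highest ratios. After *Klri2* and *Klra8* came *D5Ertd615e* (7.50), the mast cell chymase gene *Cma1* (7.10), *Khdc1a* (6.99) and *Styk1* (6.97), which encodes a kinase-like receptor. *Klra4*, *Clnk*, an adaptor of lymphocyte signalling (6.67), *Klra7*, *Spry2*, an inhibitor of growth factor signalling (6.30), *Klra3*, *Kcnip3* (5.92), *Aoah*, which inactivates bacterial lipopolysaccharide (5.89), *Klrb1b* (5.88) and *Eya1* (5.85) completed them. *Cma1* was found in 97 of 357 NK cells, no more than 4 UMIs in any 1 cell, while the basophil and mast cell markers summed to 1 UMI. At the other end stood *Ighg2b* (0 UMIs in NK cells), whose 865 UMIs in CD8 T cells came 99.9% from 1 barcode, *Jchain*, whose 285 UMIs all came from 1, and *Iglv1*, whose 59 UMIs came 98.3% from 1. The other 7 were *Gm44174*, *Nsg2*, *Dapl1*, *Gm14085*, *Tdrp*, *Trat1* and *Art2b*. *Gm44174* had 0 UMIs in NK cells and was at least 53.3-fold lower against the floor of 3 UMIs, and *Nsg2* at least 25.3-fold lower.

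The granule genes were split. Of 14 with enough UMIs, 6 were at least 2-fold higher and 2 lower, and the median log2 ratio was 0.78. Over all 9297 genes 9.63% were higher and 7.77% lower. These shares stand beside this and every later list count of the 357 NK cells over CD8 T cells. Without mixed barcodes 8 were higher and 1 lower, with a median of 1.38, where 10.6% of all genes were higher and 17.8% lower. *Gzmb* was at 374 CPM against 27.3 CPM, a log2 ratio of 3.78, and *Serpinb9*, an inhibitor of granzyme B, at 380 CPM against 22.7 CPM, a ratio of 4.07. *Serpinb6b* (3.08), *Stx11*, a gene of granule release (3.20), *Fasl*, a death ligand (2.94), and *Ctsw*, a cathepsin (1.18), were also higher. The lower genes were *Gzmk* (-1.63) and *Tnfsf10*, the gene of TRAIL (-1.33). *Srgn*, the granule proteoglycan, was nearly level at 557 and 478 CPM. *Gzmd*, *Gzme*, *Gzmf* and *Gzmg* had 0 UMIs in NK cells, where the floor of 3 UMIs stood at 3.77 CPM.

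Secreted factors were mostly chemokines. Of 8 measured, 5 were at least 2-fold higher and 0 lower, with a median log2 ratio of 2.69. *Ccl5* was at 10127 CPM against 1982 CPM, a ratio of 2.35, and had a UMI in 350 of 357 NK cells. It was the third most abundant gene of the WT NK cells after *Gm42418* and *Tmsb4x* when mitochondrial and ribosomal genes were left out. *Ifng* (84.1 CPM, 4.18), *Ccl4* (684 CPM, 3.29), *Ccl3* (180 CPM, 3.23) and *Xcl1* (256 CPM, 3.03) were higher, although *Xcl1* was detected in 17.9% of cells and *Ccl4* in 40.1%. *Csf2* and *Lta* had 0 UMIs in NK cells.

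Of the cytokine receptor genes, 6 of 11 were at least 2-fold higher and 1 lower, with a median log2 ratio of 1.05. *Il2rb*, shared by the IL-2 and IL-15 receptors, was at 832 CPM against 138 CPM, a ratio of 2.59. The IL-12 receptor gene *Il12rb2* (4.49) and the IL-18 receptor genes *Il18rap* (3.33) and *Il18r1* (1.70) were higher too. *Il21r* was lower (-2.60). The transcription factors were split, with 6 of 15 higher, 3 lower and a median of -0.02, or 7 higher, 3 lower and 0.26 without mixed barcodes. Higher were *Irf8* (3.40), *Tbx21*, the gene of T-bet (3.11), *Prdm1* (2.40), *Zeb2* (2.09), *Nfil3* (2.06) and *Id2* (1.67), factors of NK development and maturation. Lower were the T cell factors *Tcf7* (-2.91), *Lef1* (-3.02) and *Bcl11b* (-4.93).

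Genes of maturation and circulation gave 10 of 16 higher, 3 lower and a median log2 ratio of 1.18. *Itga2*, the gene of CD49b, had a ratio of 4.92 at 439 CPM, and *Itgam*, the gene of CD11b, 3.40 at 123 CPM. *S1pr5*, a receptor of egress (2.88), and *Ccr2* (2.20) were higher, and *S1pr1* (-2.66), *Emb* (-1.80) and *Cd27* (-1.03) were lower. In single cells, *Itgam* alone was found in 77 of 357 cells, *Cd27* alone in 26, both in 1 and neither in 253, so most cells could not be staged at this depth. The ILC1 and residency genes went the other way, with 6 of 11 lower, 1 (*Rgs1*, 2.19) higher and a median of -1.86. *Il7r* (-4.00), *Inpp4b* (-3.40), *Itgae* (-3.40), *Cxcr6* (-3.16), *Ltb* (-3.04) and *Cd69* (-1.86) were the lower ones, while *Itga1* (-0.56) was not past 2-fold. Without mixed barcodes 8 were lower, with a median of -1.50.

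Interferon-stimulated genes gave 0 of 17 higher, 6 lower and a median of -0.62, and cycling genes 0 of 14 higher, 9 lower and a median of -1.13 (-2.08 for the 112 cells without mixed content, or -0.42 with genes at 0 placed at their floor). *Top2a* was at 17.6 CPM against 45.9 CPM, and *Mki67* at 16.3 CPM against 29.1 CPM, while *Stmn1* (0.16) and *Hmgb2* (-0.14), which also serve other roles, stood near level. At 500 UMIs per cell, 7 of 357 WT NK cells held at least 2 of the 15 cycling genes (1.96%, 95% interval 0.792 to 4.00), against 15 of 494 CD8 T cells (3.04%, 1.71 to 4.96) and 19 of 277 CD4 T cells (6.86%). The intervals of NK and CD8 T cells overlap. Unthinned, the NK share was 17.1% and that of CD8 T cells 18.6%. Early response and heat shock genes gave 0 of 14 higher and 0 lower, with a median of 0.32. For the 112 cells without mixed content they gave 0 higher, 4 lower and -0.33. The sign thus changed when those barcodes were left out of the NK cells alone. *Lyz2*, *S100a8* and *Col1a1* define the mixed barcodes and belong to the lists that follow, so the fall of these lists is set at least in part by which cells were kept. Macrophage markers changed from a median of -0.16 to -1.83, neutrophil markers from 2.04 over 4 genes to -2.86 over 2, and mesenchymal markers from 1.38 to -2.29 when the mixed barcodes were left out.

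The Ly49 genes were spread unevenly over the NK cells. *Klra4* had 0 UMIs in 178 WT NK cells, 1 in 29, 2 in 24 and at least 3 in 126. *Klra8* had 0 in 161, 1 in 58, 2 in 29 and at least 3 in 109. Both were therefore either missing or well above 1 UMI in most cells. *Klre1*, with fewer UMIs in all (595 against 828 for *Klra4*), had 0 in 80 cells, 1 in 105, 2 in 80 and at least 3 in 92. *Il2rb* had 0 in 75, 1 in 98, 2 in 87 and at least 3 in 97.

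For each gene, the share of cells that would hold a UMI if its UMIs were spread in proportion to depth was set beside the share seen. It was 84.6% for *Klra4*, of which 50.1% was seen, and 82.3% for *Klra8*, of which 54.9% was seen. For *Klra7* it was 56.1% with 34.5% seen, and for *Klra9* 58.4% with 43.4% seen. For *Klre1* it was 75.3% with 77.6% seen, for *Klrd1* 75.3% with 75.6% and for *Ncr1*, a gate gene, 62.0% with 64.1%. The Ly49 genes were thus found in fewer cells than their totals would give, and the chemokine genes *Ccl4* (72.5% and 40.1%) and *Xcl1* (40.9% and 17.9%) shared this.

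**Figure D4:**
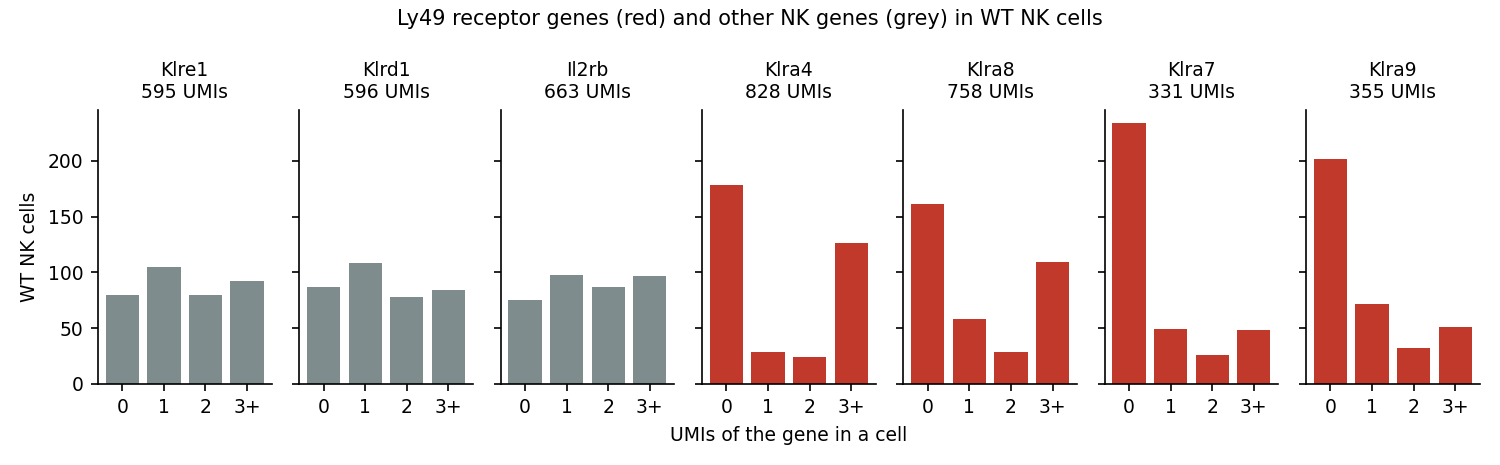
Number of WT NK cells (n = 357) with 0, 1, 2 or at least 3 UMIs of a gene, for 3 NK genes (grey) and 4 Ly49 genes (red), with the total UMIs above each panel. *Klra4* and *Klra8* have their highest bars at 0 and at 3 or more, 178 and 126 cells for *Klra4*, while the bars of *Klre1*, *Klrd1* and *Il2rb* are of similar height.

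Counting the 6 Ly49 genes measured (*Klra1*, *Klra3*, *Klra4*, *Klra7*, *Klra8* and *Klra9*), 30 WT NK cells had none, 75 had 1, 118 had 2, 83 had 3, 45 had 4, 6 had 5 and 0 had 6. *Klra4* and *Klra8* were found together in 118 cells (33.1%, where the product of their shares is 27.5%), and *Klra4* and *Klra9* in 63 (17.6% and 21.8%). The 6 genes lie side by side on chromosome 6 (chr6:130043730-130386874, GRCm38) and are near-copies of each other, so reads may be split or discarded between them and the counts of single genes are uncertain. Likeness was measured only for the promoters of *Klra4* and *Klra8*, not for the other Ly49 genes. The 250 bases before a RefSeq transcript start of *Klra4* (chr6:130067272-130067521, minus strand), a start that lies inside the gene's outermost boundary, and before the start of *Klra8* (chr6:130129899-130130148, minus strand) follow from RefSeq on GRCm38.p6, with capitals on the longest shared stretch, 27 bases.
Klra4: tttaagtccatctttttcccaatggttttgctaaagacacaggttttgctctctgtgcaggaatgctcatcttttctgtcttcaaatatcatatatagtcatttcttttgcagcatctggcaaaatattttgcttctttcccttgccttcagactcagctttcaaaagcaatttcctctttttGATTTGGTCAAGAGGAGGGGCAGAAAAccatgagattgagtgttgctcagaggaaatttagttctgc
Klra8: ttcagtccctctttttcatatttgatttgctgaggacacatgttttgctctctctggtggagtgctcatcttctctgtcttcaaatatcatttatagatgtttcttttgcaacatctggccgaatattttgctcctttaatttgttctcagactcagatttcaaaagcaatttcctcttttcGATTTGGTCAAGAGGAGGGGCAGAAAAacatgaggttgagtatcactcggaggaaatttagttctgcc
Aligned end to end these promoters were 84.5% identical, against 44.9% for *Klra4* and *Ncr1*.

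In the KO library, the 10 NK cells were described 1 gene at a time before any ratio. *Nkg7*, *Klrk1*, *Klre1*, *Tyrobp*, *Fcer1g* and *Ccl5* had a UMI in all 10 cells, *Gzma* and *Klrd1* in 9, *Klrb1c* and *Il2rb* in 8, *Ncr1* and *Prf1* in 7 and *Eomes* in 6. *Ccl5* held 12 to 70 UMIs per cell with a median of 28, *Tyrobp* 3 to 17 with a median of 11, and *Gzma* 0 to 46 with a median of 28.5. *Trac* and *Cd8a* had 0 UMIs in all 10, but other T cell markers were present. At least 1 of the 12 T cell markers was found in 9 of the 10 cells, at least 2 in 4 and at least 3 in 2. *Trbc1* was found in 40% of the cells, and *Trdc* and *Cd28* in 20% each. *Klra4* was in 6 cells, *Klra8* in 4 and *Gzmb* in 3. Receptor and adaptor genes that the rule did not use were thus found in at least 9 of the 10 KO cells in the case of *Klrk1*, *Klre1*, *Klrd1*, *Tyrobp* and *Fcer1g*.

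Several of the 10 KO barcodes carried transcripts of other cell types, and 1 stood apart by depth. It held 31352 UMIs, 49.0% of all UMIs in KO NK cells, where the next deepest held 8553. *Scgb1a1*, the secretoglobin of club cells, made up 15975 of its UMIs (51.0%), and it also held 688 of *Scgb3a2* and 132 of *Cyp2f2*, other club cell genes. Its gate genes were *Gzma* (26 UMIs), *Nkg7* (8), *Klrb1c* (6) and *Ncr1* (1). Ratios below are therefore given with this barcode and without it, on 63938 and 32586 UMIs. In the other 9 cells, 3 more barcodes held most of the leading epithelial and mesenchymal UMIs. The second deepest, of 8553 UMIs, held all 45 mesenchymal marker UMIs, the third, of 4555 UMIs, held 1763 of the 1786 *Scgb1a1* UMIs (98.7%), and the fifth, of 3726 UMIs, held 203 of the 240 *Sftpc* UMIs (84.6%). All 3 also held *Gzma*, *Nkg7*, *Ncr1* and *Ccl5*. The other 6 cells held 15752 UMIs.

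Between genotypes, 5999 genes had at least 20 UMIs over both sums of NK cells. Of these 281 (4.68%) were at least 2-fold higher in KO and 2778 (46.3%) at least 2-fold lower, 51% in all, with a median log2 ratio of -0.88. Without the deepest barcode, 544 of 5902 (9.22%) were higher and 1924 (32.6%) lower, 41.8% in all, with a median of -0.51. Low genes could not be compared at this depth, since 3 UMIs in the 9 cells amount to 92.1 CPM and a gene needed 147 WT UMIs to be 2-fold above that floor. In the 9 cells 1453 of the 5902 genes had 0 UMIs. Of the 1924 lower genes, 1134 were among these zeros, called through the 0.5 UMIs added to both sums, and 790 had a KO UMI. With genes at 0 placed at their floor, the median of all genes was 0.15 instead of -0.51. With all 10 cells, 912 of the 2778 lower genes had 0 KO UMIs. TMM factors moved the ratios by 0.64 with all 10 cells, which gave 736 higher and 1707 lower, DESeq2 factors gave 813 and 1635, and for the 9 cells TMM moved them by 0.13.

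The highest ratios with all 10 cells were mostly lung epithelial genes. The 10 highest were *Cyp2f2*, *Scgb3a2*, *Scgb1a1*, *Retnla*, *Wfdc2*, *Cbr2*, *Sftpd*, *Hp*, *Sftpb* and *Sftpa1*. Much of this list rested on the deepest barcode, without which the log2 ratio of *Scgb3a2* went from 10.07 to 2.61, of *Retnla* from 7.99 to 0.52, of *Cbr2* from 7.18 to 0.80 and of *Hp* from 5.86 to 1.34. Over the 9 cells the 10 highest were *Scgb1a1*, *Sftpa1*, *Robo2*, *Sftpc*, *Fermt2*, *Eln*, *Slit2*, *Arhgap24*, *Thbs1* and *Dock4*, 2 of them (*Scgb1a1* and *Sftpa1*) also among the 10 above. These genes too rested on single barcodes. Of the 9 cells, the second deepest KO barcode held all UMIs of *Robo2* (27), *Fermt2* (26), *Slit2* (22), *Arhgap24* (17) and *Thbs1* (39), 67 of 68 of *Eln* and 28 of 29 of *Dock4*. Epithelial markers summed to 812 CPM in WT NK cells, 283869 CPM in the 10 KO cells and 64261 CPM in the 9, led by *Scgb1a1* in each. *Sftpc* was at 7365 CPM in the 9 KO NK cells and at 19135 CPM in KO CD8 T cells, where all 28 cells carried it. Without the barcode of most *Sftpc* UMIs it was at 1282 CPM in 8 KO NK cells. *Scgb1a1* was at 54809 CPM in the 9 KO NK cells, 821 CPM without the barcode of most of its UMIs, and 16121 CPM in KO CD8 T cells, whereas *Cyp2f2* and *Retnla* were at 24.2 CPM each in KO CD8 T cells. The share of such genes in the total enters every CPM of these KO cells. The 10 lowest were *Spp1*, *Ctss*, *S100a9*, *S100a8*, *Arhgap26*, *Plcl2*, *Nfatc1*, *Ptpn4*, *Fabp5* and *Nrip1*. Of these, 5 (*Spp1*, *Ctss*, *S100a9*, *S100a8* and *Arhgap26*) were also among the 10 lowest without the deepest barcode. *Spp1* had 0 UMIs in KO and was at least 13.7-fold lower against the floor with 10 cells and at least 6.97-fold lower with 9, but 70.1% of its 511 WT UMIs came from 1 barcode. *Spp1*, *Ctss*, *S100a9* and *S100a8* are known as macrophage or neutrophil genes, and the top WT barcode for each gene held 47.6% of the UMIs of *Ctss*, 43.7% of those of *S100a9*, found in 16 WT NK cells, and 31.8% of those of *S100a8*, found in 13.

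The medians of the NK gene lists moved toward 0 once the deep barcode was left out, and not all lay near it. Over the 9 cells the gate genes had a median log2 ratio of -0.06, the inhibitory receptor and Ly49 genes -0.13 over 11 genes, granule genes -0.18 over 12 and activating receptors -0.35 over 14, against -0.51 for all genes. Maturation and circulation genes were at -0.37 over 15, cytokine receptors at -0.54 over 9, cytokines and chemokines at -0.95 over 8 and transcription factors at -1.07 over 14. With all 10 cells the first 4 medians were -0.80, -1.10, -0.99 and -1.08, against -0.88 for all genes, and the other 4 were -1.32, -1.37, -1.93 and -1.69. Without the activating *Klra4* and *Klra8*, the inhibitory receptor genes were at -0.05 over 9 genes in the 9 cells and at -1.03 in the 10. Genes with 0 KO UMIs placed at their floor gave, in the 9 cells, 0.10 for activating receptors, -0.16 for cytokines and chemokines, -0.66 for transcription factors and 0.15 for all genes. Signs of such medians near 0 carry no direction. Among lists of other cell types, the 9 cells had medians of -1.21 for macrophage and monocyte markers over 6 genes and -2.61 for neutrophil markers over 4. These were -0.57 and -0.01 with genes at 0 placed at their floor, and -2.11 and -3.53 with all 10 cells. Mesenchymal markers (0.77) and epithelial markers (4.61) lay above 0 in the 9 cells.

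Of single genes, *Ccl5* was at 9636 CPM in the 9 KO cells and 10127 CPM in WT, a log2 ratio of -0.07 (95% interval -0.24 to 0.09). *Gzma* had a ratio of 0.24 (0.04 to 0.42), *Ncr1* of 0.07 (-0.73 to 0.77) and *Nkg7* of 0.39 (0.03 to 0.73), all values of genes that chose the cells. With the deep barcode the ratios were -0.99 for *Ccl5*, -0.59 for *Gzma*, -0.82 for *Ncr1* and -0.43 for *Nkg7*. *Tyrobp* had 0.56 (0.25 to 0.86) in the 9 cells and -0.25 (-0.55 to 0.03) in the 10. *Klrk1* had 0.69 (0.12 to 1.20) and -0.20 (-0.74 to 0.30), and *Klre1* 0.60 (0.08 to 1.08) and -0.22 (-0.71 to 0.24). The direction of these 3 genes thus turned with 1 barcode. *Klra4* had -0.13 (-0.70 to 0.39) in the 9 cells and -1.10 (-1.67 to -0.58) in the 10, and *Klra8* -1.15 (-2.03 to -0.39) and -1.61 (-2.32 to -0.97). Other Ly49 genes went the other way in the 9 cells. *Klra3* had 1.09 (0.15 to 1.91) in the 9 and 0.33 (-0.55 to 1.10) in the 10, and *Klra7* 0.56 (-0.17 to 1.21) and -0.41 (-1.14 to 0.24). In the 6 cells without the 4 barcodes described above, *Tyrobp* had 1.13 (0.75 to 1.48), *Klrk1* 1.26 (0.59 to 1.86), *Klre1* 0.90 (0.22 to 1.51), *Klra4* 0.49 (-0.18 to 1.09), *Klra8* -0.10 (-0.98 to 0.66) and *Ccl5* 0.07 (-0.15 to 0.30). The ratios of these receptor genes thus depended on which KO barcodes were counted.

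Some NK genes had lower values in KO with and without the deep barcode. *Il18rap* had 4 UMIs in the 9 KO cells, a log2 ratio of -2.60 (-4.48 to -1.23), and -2.99 with all 10. *Zeb2* had 9 UMIs, a ratio of -1.88 (-3.02 to -0.95), and -2.57 with all 10. *Gzmb* (3 UMIs, -2.02), *Il2rb* (12 UMIs, -1.18) and *Ets1* (10 UMIs, -1.25) were also below WT, the last 2 at -1.83 and -1.84 with all 10, where *Gzmb* was at 46.9 CPM against 374 CPM in WT. Some of these values were nearer to 0 when the other barcodes in doubt were left out. In the 6 cells *Il18rap* was at -1.96 (-4.25 to -0.41) on 3 UMIs *Zeb2* at -4.00 (-9.31 to -1.52) on 1 and *Gzmb* at -2.56 (-7.87 to -0.07) on 1, whereas *Il2rb* was at -0.54 (-1.68 to 0.39) and *Ets1* at -0.35 (-1.49 to 0.59). The low *Gzmb* value rested on the exclusion of *Ly6c2*. The 5 KO cells kept out by *Ly6c2* alone had it at 1026 CPM, against 540 CPM in the 181 WT cells kept out the same way. With those cells added to the 9 KO and the 357 WT cells, *Gzmb* was at -0.48 (-1.40 to 0.30), *Ets1* at -0.63 (-1.37 to 0.02), *Il18rap* at -1.57 (-2.58 to -0.73), *Zeb2* at -1.24 (-1.96 to -0.61) and *Il2rb* at -1.20 (-2.04 to -0.47). These values rest on a handful of UMIs and on 1 library per genotype. They were named from lists among 5902 genes, of which 32.6% were at least 2-fold lower in the 9 cells. Of those lower genes, 1134 had 0 UMIs in the 9 KO cells and 790 had a UMI.

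**Figure D5:**
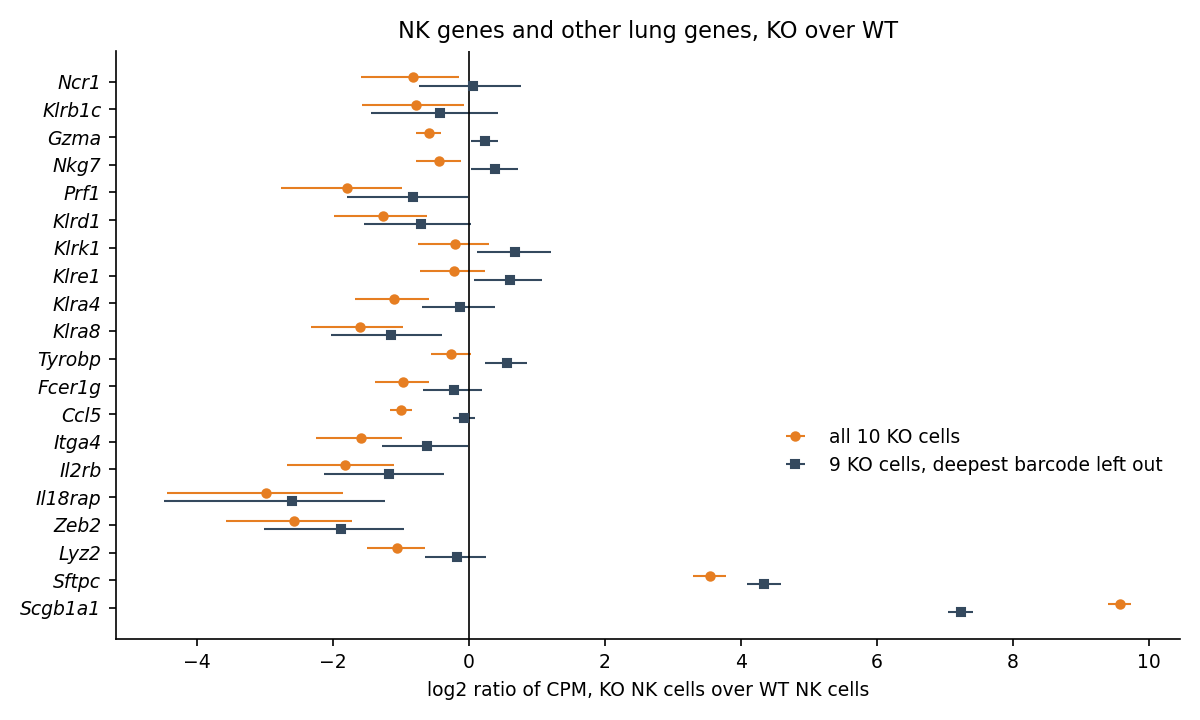
log2 ratio of CPM, KO over WT NK cells, for NK genes and the macrophage and epithelial genes *Lyz2*, *Sftpc* and *Scgb1a1*, with all 10 KO cells (orange) and without the deepest barcode (dark), and 95% intervals for counting error only. *Scgb1a1* stands at 7.23 and *Il18rap* at -2.60 without the deepest barcode, and most NK genes lie closer to 0 in the 9 cells than in the 10.

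Interferon-stimulated genes had a median of -1.16 over 8 genes with all 10 KO cells and -0.37 with 9, or 0.31 with genes at 0 placed at their floor, so no direction holds. Cycling genes had enough UMIs in 3 cases only. At 500 UMIs per cell, 1 of 10 KO NK cells held at least 2 cycling genes (10%, 95% interval 0.253 to 44.5), a barcode of 4254 UMIs that was not the deepest. Whether NK cells differed in division between genotypes could not be tested with 1 library each.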

How the data were processed

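The authors deposited gene by cell matrices of UMI counts for 1 WT and 1 KO library, made with the 10x Chromium 3′ kit. The submitters' processing notes name Cell Ranger 3.1.0, STAR and GRCm38/mm10, and the matrix headers name cellranger 5.0.0. Barcodes with 201 to 4999 genes and under 20% mitochondrial UMIs were kept, a filter close to the one the study states.

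UMIs were summed over cells with Python 3.11.15, numpy 2.4.6 and scipy 1.17.1, divided by the total of the cells and given as CPM, with exact Poisson or Clopper-Pearson 95% intervals. Ratios used genes with at least 20 UMIs over both sums, adding 0.5 UMIs to both where 1 sum was 0, and 2-fold as the threshold. The ratio step was checked on simulated counts drawn independently from a Poisson model, the model its intervals assume. That check cannot show whether the intervals hold where UMIs of a gene cluster in single cells. Scaling alternatives used edgeR 4.0.16 and DESeq2 1.42.0 in R 4.3.3, for size factors only. No doublet caller was run, and barcodes of mixed content were left out as an alternative instead. Named genes were the gate genes, the listed genes, the 15 highest and 10 lowest NK over CD8 T ratios and the 10 highest and 10 lowest KO over WT ratios among genes with at least 50 UMIs, and the 10 most abundant genes. The members and the lists were chosen with earlier results of these data known. *Trgc1* was the 1 listed gene without a match. Promoters came from RefSeq (GRCm38.p6).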

Additional observations from a re-analysis of the deposited data

How the results depend on the processing

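The members, the CPM scale and the thinning were varied 1 choice at a time. For WT, the NK share of kept cells was 0.759% with *Ncr1* required, 1.78% without the exclusion on *Ly6c2*, 0.371% with mixed barcodes left out, 1.32% with a mitochondrial limit of 10%, 1.47% with more than 500 genes and 1.51% with the gate on cells thinned to 500 UMIs. The share of *Ptprc*-detected WT cells was 1.85% with *Ncr1* required, 4.33% without the exclusion on *Ly6c2*, 0.929% with mixed barcodes left out and 3.71% with the thinned gate. With mixed barcodes left out both KO shares were 0, so no ratio between genotypes could be had. With at least 50 UMIs over both sums, 873 genes were 2-fold apart between NK and CD8 T cells and 1557 between genotypes, and with at least 200 UMIs, a limit chosen after seeing the data, 265 and 264, where fewer genes were tested. No interferon-stimulated gene reached 200 UMIs in NK cells. The WT share with at least 2 cycling genes was 5.85% thinned to 1000 UMIs and 17.1% without thinning, and the KO share was 0 thinned to 1000 UMIs. Where only the members changed, the cells kept the same thinning draw. No paired analysis was possible because each genotype was 1 library. The KO values are limited by 10 cells, 1 of them holding 49.0% of their UMIs.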
